A study of Mus musculus with 17 samples.

Results

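Il17a, Il22 and Csf2 encode interleukin-17A (IL-17A), interleukin-22 (IL-22) and granulocyte-macrophage colony-stimulating factor (GM-CSF). They are 3 of the 988 genes counted by an amplicon panel of immune and tumor genes in mouse colon, and they were taken by gene symbol from the count table of each of the 17 samples. All mice received azoxymethane, a carcinogen that induces colon tumors, by intraperitoneal injection. Kit-B6 mice are C57BL/6 mice with normal Kit. Kit-W/sh (W-sash) mice carry an inversion upstream of Kit and lack mast cells as adults, and Kit serves other cells too, so the genotype is not a change in mast cells alone. Tumors (6 Kit-B6 and 6 Kit-W/sh) were taken at postnatal week 32, after 6 injections over 6 weeks and a further 18 weeks. Preneoplastic colon (3 Kit-B6 and 2 Kit-W/sh samples) was taken at postnatal week 14, after 3 injections over 3 weeks and a further 3 weeks. Stage, age and carcinogen dose therefore changed together and cannot be told apart. The labels do not say that each sample came from a separate mouse, so the p-values cover sample-to-sample spread, which may be technical.

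IL-17A and IL-22 are made by type 17 helper T cells, gamma delta T cells and group 3 innate lymphoid cells. IL-17A acts on epithelial and stromal cells through a receptor containing IL17RA and induces chemokines that draw neutrophils. IL-22 acts on the gut epithelium through STAT3, and GM-CSF, made by lymphocytes and also by epithelial and stromal cells, acts on myeloid cells through a receptor whose signalling chain is encoded by Csf2rb. In bulk tissue, fewer cells of a type and less RNA per cell cannot be told apart.

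The sequence of Il22 limits what its counts can tell. C57BL/6 mice carry a near-identical copy of Il22 called Iltifb, which had no entry of its own in the count tables, and the positions of the panel's amplicons are not given in the sources used here. The coding sequences of the annotated transcripts (GENCODE M21, GRCm38) are each 540 bases long and differ at 9 positions, an identity of 98.3%. Coding bases 121 to 240 hold 4 of the differences, shown in capitals, 5′ to 3′ on the transcript strand:
Il22: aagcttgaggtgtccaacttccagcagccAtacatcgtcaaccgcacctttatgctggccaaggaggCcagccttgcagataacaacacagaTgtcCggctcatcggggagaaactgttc
Iltifb: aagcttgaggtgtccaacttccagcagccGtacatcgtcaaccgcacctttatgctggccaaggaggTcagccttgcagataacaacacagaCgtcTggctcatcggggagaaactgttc
Counts listed as Il22 may therefore include transcripts of either copy.

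Tumor libraries held 616554 to 1399902 counts (Kit-B6) or 1049408 to 1262171 counts (Kit-W/sh). Preneoplastic libraries were shallower, with 616009 to 703549 counts for Kit-B6 and 621141 to 815973 for Kit-W/sh. Kit averaged 221 ± 149 CPM (counts per 1000000 of the TMM-scaled library total; ± SD throughout) in Kit-B6 tumors (n = 6) and 106 ± 76.3 CPM in Kit-W/sh tumors (n = 6). In preneoplastic colon it averaged 377 ± 130 CPM with normal Kit (n = 3), against 120 ± 9.73 CPM in Kit-W/sh (n = 2). The epithelial gene Epcam was between 22175 and 34599 CPM in every library. The sum of the 2 measured epithelial markers, Epcam and Car4, was not even. It ran from 25383 to 49434 CPM in Kit-B6 and 24478 to 30378 CPM in Kit-W/sh tumors. In preneoplastic colon it ran from 50704 to 122979 CPM (Kit-B6) and 88889 to 89655 CPM (Kit-W/sh). In tumors 1 of the 2 was called lower in each genotype, as were 164 (Kit-B6) and 163 (Kit-W/sh) of all 869 genes tested. The mast cell carboxypeptidase Cpa3 reached 460 CPM in one library, labelled Kit-W/sh tumor 2, against its label, and was at 0 to 9.81 CPM in the other Kit-W/sh tumors. Kit-B6 tumor 4 had the lowest Il17a and Csf2 of the tumors and a Cxcl1 level of 34.99 CPM, within the range of the Kit-B6 preneoplastic samples (18.6 to 56.2 CPM). Its Il6 (4.12 CPM) also lay within the range of those samples (1.83 to 4.65 CPM). Its Cxcl5 (704 CPM against 20.1 to 77 CPM) and Cxcr2 (29.8 CPM against 0 to 1.81 CPM) lay above their range. For the members, and for gene lists between genotypes in tumors, values without both libraries are given where they change a call or a direction. Leaving out both was chosen after seeing the data, Kit-B6 tumor 4 in part for its low Il17a, Csf2 and Cxcl1. A call made only without both libraries is therefore no independent support.

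Il17a was counted in every tumor and was higher on average in Kit-W/sh tumors. Raw counts were 48, 32, 12, 5, 18 and 18 in Kit-B6 tumors 1 to 6, and 25, 59, 122, 255, 208 and 64 in Kit-W/sh tumors 1 to 6. Scaled to library size, the Kit-B6 tumors were at 38.8, 44.7, 12.6, 5.15, 12.8 and 21.2 CPM. The Kit-W/sh tumors were at 18.9, 45.5, 99.4, 197, 178 and 58.6 CPM. Kit-W/sh tumors 3 to 6 lay above every Kit-B6 tumor, and tumor 1 lay within the Kit-B6 range. The library labelled Kit-W/sh tumor 2, whose label is doubted, lay only just above the highest Kit-B6 tumor (45.5 against 44.7 CPM). In preneoplastic colon the raw counts were 1, 0 and 3 in Kit-B6 and 5 and 14 in Kit-W/sh, so every Kit-B6 library was at or under the floor of 3 counts below which a count is not told from 0.

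Il22 was sparse in Kit-B6 samples of both stages, and its highest levels were in Kit-W/sh preneoplastic colon. Raw counts were 0, 3, 0, 0, 1 and 0 in Kit-B6 tumors 1 to 6 and 0, 2, 27, 23, 15 and 4 in Kit-W/sh tumors 1 to 6. In preneoplastic colon they were 0, 3 and 1 in Kit-B6 and 22 and 18 in Kit-W/sh, although these 2 libraries were among the shallower ones. On the CPM scale the Kit-W/sh preneoplastic samples were at 39.8 and 24.8, both above the highest tumor, Kit-W/sh tumor 3, at 22 CPM. In libraries without a count, the floor of 3 counts allows a level of up to 2.26 CPM in Kit-W/sh tumor 1 and up to 5.5 CPM in Kit-B6 preneoplastic sample 1, for counting error only.

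Csf2 was at or under 3 counts in all 5 preneoplastic samples and was counted in every tumor. Raw counts were 21, 10, 13, 1, 33 and 16 in Kit-B6 tumors 1 to 6, and 29, 8, 70, 98, 154 and 72 in Kit-W/sh tumors 1 to 6. In preneoplastic colon they were 2, 3 and 1 in Kit-B6 and 2 and 1 in Kit-W/sh. The Kit-B6 tumors lay between 1.03 and 23.5 CPM, and Kit-W/sh tumors 3 to 6 lay between 57 and 132 CPM, above all of them. Kit-W/sh tumor 1 (21.9 CPM) and the library labelled Kit-W/sh tumor 2 (6.17 CPM) lay within the Kit-B6 range.

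**Figure D1:**
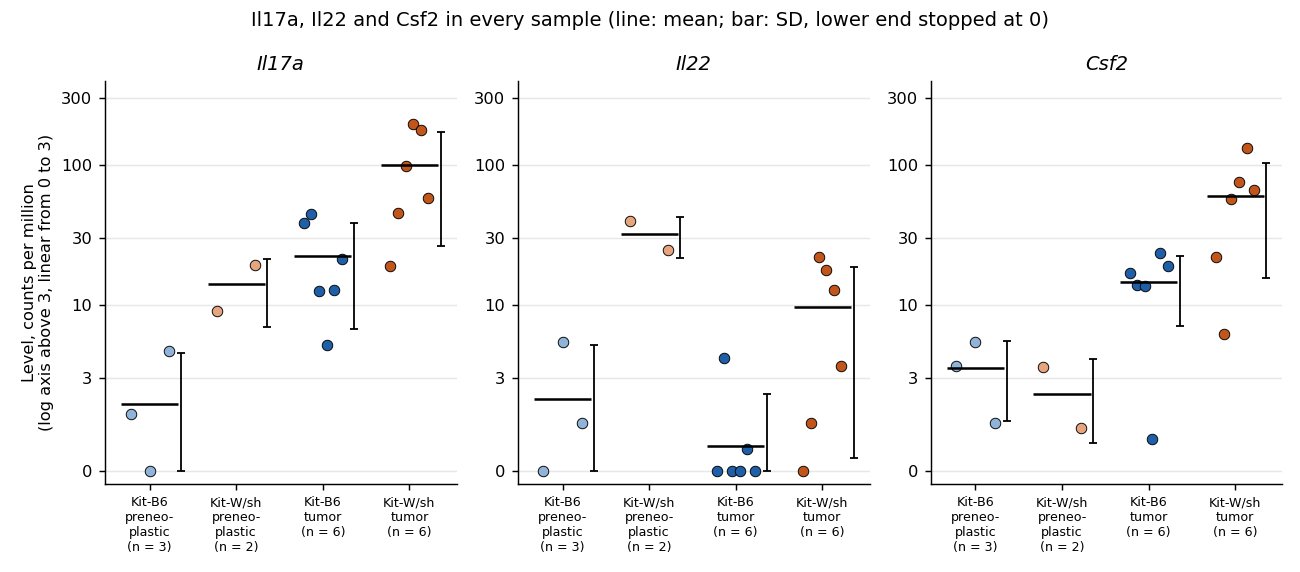
Level of Il17a, Il22 and Csf2 in CPM (vertical axis, logarithmic above 3 and linear below) in each sample, by genotype and stage. Points are samples, lines are group means and bars are the SD; Il17a and Csf2 reach their highest levels in Kit-W/sh tumors (197 and 132 CPM), and Il22 in Kit-W/sh preneoplastic colon (39.8 CPM).

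The order of the group means differed between the genes. For Il17a it was Kit-W/sh tumors (99.5 ± 73.1 CPM), Kit-B6 tumors (22.5 ± 15.8), Kit-W/sh preneoplastic colon (14.2 ± 7.23) and Kit-B6 preneoplastic colon (2.16 ± 2.34). The ranges of Kit-B6 tumors and Kit-W/sh preneoplastic colon overlapped, as did those of the tumor groups. For Il22 it was Kit-W/sh preneoplastic colon (32.3 ± 10.6 CPM), Kit-W/sh tumors (9.63 ± 9.19), Kit-B6 preneoplastic colon (2.33 ± 2.8) and Kit-B6 tumors (0.817 ± 1.68). Only the first of these groups stood clear of its neighbour in this order. For Csf2 it was Kit-W/sh tumors (59.8 ± 44.3 CPM), Kit-B6 tumors (14.7 ± 7.6), Kit-B6 preneoplastic colon (3.55 ± 1.95) and Kit-W/sh preneoplastic colon (2.5 ± 1.58), and every neighbouring pair overlapped. Amplicons differ in efficiency, so levels are not compared between genes.

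The first comparison asked how tumors of Kit-W/sh and Kit-B6 mice differ. No member passed the test over all genes: edgeR's quasi-likelihood test called 0 of 799 genes (0%) at an adjusted p under 0.05, 109 genes (13.6%) had an unadjusted p under 0.05, and DESeq2 called 27. The log2 fold change of Il17a (Kit-W/sh over Kit-B6) was 2.12 ± 0.60 (± SE throughout; adjusted p = 0.154), and DESeq2 gave 2.11 with an adjusted p of 0.0208, a call. For Csf2 it was 1.99 ± 0.64 (edgeR adjusted p = 0.211; DESeq2 adjusted p = 0.054). The Kit-W/sh level was above the Kit-B6 median in 6 of 6 tumors for Il17a and in 5 of 6 for Csf2. Without both doubted libraries, which held ranks 11 and 12 of the 12 tumors for Csf2, edgeR called 15 genes. Csf2 was among them, at 1.98 with an adjusted p of 0.0352, in a set of samples chosen partly on Csf2. Leaving out any 1 tumor, edgeR called 0 genes. Over all alternative settings the adjusted p of Il17a ran from 0.0208 to 0.392 and that of Csf2 from 0.0352 to 0.5.

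Two-sided exact permutation tests of the mean log2(CPM + 1), whose smallest possible p with 6 against 6 samples is 0.00216, gave the same direction. The difference was 2.01 for Il17a (exact permutation p = 0.0152, adjusted p = 0.331) and 1.78 for Csf2 (exact permutation p = 0.0433, adjusted p = 0.38). Il22 had too few counts to pass the filter on low counts in tumors. Kit-W/sh tumors held 71 counts in sum and Kit-B6 tumors 4, a ratio of library-scaled sums of 14.7 (exact 95% interval 5.49 to 55.4, for counting error only). Of the 4 Kit-B6 counts, 3 were in Kit-B6 tumor 2, and without that library the log2 ratio moved from 3.88 to 5.70. The permutation difference for Il22 was 2.16 (exact permutation p = 0.0411, adjusted p = 0.429 over 962 genes).

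In the tumors, the members were high in the same libraries. Kit-W/sh tumors 3, 4 and 5 held the highest 3 ranks of the 12 tumors for Il22, and also for Il17a, and ranks 4, 2 and 1 for Csf2. Of the 4 tested markers of innate lymphoid and gamma delta T cells, a list that holds Kit itself, 3 were lower in Kit-W/sh tumors. An unadjusted p under 0.05 was reached on the lower side by 2, as by 43 of all 799 genes. The median was -0.62, with 0 called. Of 10 tested genes of type 17 transcription and homing, 6 were higher and 4 lower (median 0.16), with 0 called. Of the 9 tested T cell markers, 0 had an unadjusted p under 0.05, and 6 had log2 fold changes above 0. Without both doubted libraries that number was 1 of 9, again with 0 called, and the list's median moved from 0.24 to -0.35. In all libraries their summed level ran from 273 to 782 CPM in Kit-B6 and from 488 to 1106 CPM in Kit-W/sh tumors. The library labelled Kit-W/sh tumor 2 had the highest sum, with Il17a at 45.5 CPM. Per 100 counts of the T cell receptor chains Cd3d, Cd3e and Cd3g, Il17a gave 5.21 to 20.7 counts in Kit-B6 tumors and 8.72 to 132 in Kit-W/sh tumors, with tumors 3 to 6 of Kit-W/sh above all Kit-B6 tumors. Neutrophil markers had the same direction as the members between genotypes in tumors. Of 3 tested (Cxcr2, Fpr1 and Csf3r), 3 had an unadjusted p under 0.05 on the higher side, against 8.26% of all genes. In all libraries 0 of the 3 were called. Without both doubted libraries, a set of samples chosen after seeing the data, Cxcr2 (1.45) and Fpr1 (1.74) were called. The summed level of the 5 measured neutrophil markers was 61.7 to 258 CPM in Kit-B6 and 274 to 769 CPM in Kit-W/sh tumors, and its part in the result was not tested.

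**Figure D2:**
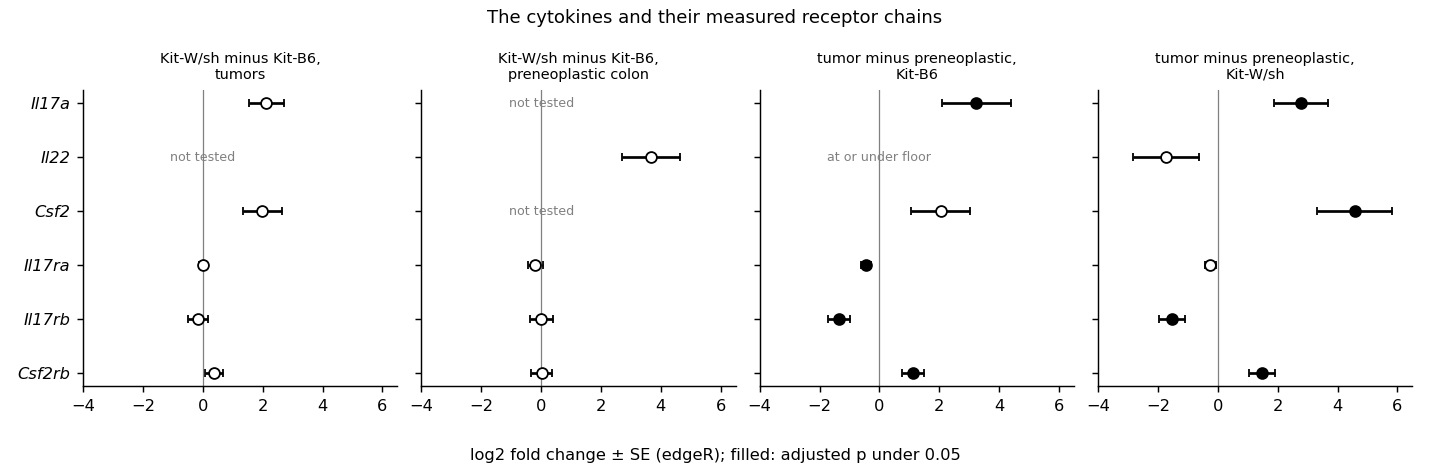
Log2 fold change with its SE (horizontal axis, edgeR) of Il17a, Il22, Csf2 and the measured receptor chains in 4 comparisons; filled points passed an adjusted p of 0.05, and genes under the filter on low counts, or with every library at or under 3 counts, are marked. Il17a passed in both comparisons of tumors with preneoplastic colon (3.24 and 2.78), and no member passed between genotypes.

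In preneoplastic colon the member that differed most between genotypes was Il22. Its log2 fold change was 3.66 ± 0.96 (edgeR adjusted p = 0.253, unadjusted p = 0.00387, 10th smallest of 777 genes), with both Kit-W/sh samples above all 3 Kit-B6 samples. Among the 777 genes tested, 1 (0.129%) was called and 127 (16.3%) had the Kit-W/sh samples above all Kit-B6 samples. Il22 passed the filter only through the group in which it was high. The ratio of its summed counts, 40 against 4, was 13.6 (exact 95% interval 4.92 to 52.4). The exact permutation p was 0.1, the smallest that 3 against 2 samples allow, and over all alternative settings the edgeR or DESeq2 adjusted p ran from 0.0671 to 0.997.

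Il17a did not pass the filter in preneoplastic colon. The Kit-W/sh samples held 19 counts in sum and the Kit-B6 samples 4, a ratio of 6.47 (exact 95% interval 2.15 to 26.1), and both Kit-W/sh samples lay above the Kit-B6 samples (exact permutation p = 0.2). Csf2 had 3 and 6 summed counts, and no fold is given because every library was at or under the floor. All 10 tested T cell markers had a lower fitted level in the Kit-W/sh samples, as had 397 of all 777 genes. Of the 10, 0 were called and 0 had an unadjusted p under 0.05. Their summed level was 751 and 924 CPM in Kit-W/sh and ran from 656 to 1856 CPM in Kit-B6. Per 100 Cd3 counts, Il22 gave 11.3 and 9 counts in Kit-W/sh against 0 to 0.865 in Kit-B6.

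From preneoplastic colon to tumors, Il17a rose in both genotypes and Csf2 rose in Kit-W/sh mice. Of the 869 genes tested over all 17 libraries, 41.1% were called in Kit-B6 (22.2% as higher) and 39.7% in Kit-W/sh (20.9% as higher), so a call was common in these comparisons. Il17a in Kit-B6 and Csf2 in both genotypes were at or under the floor in every preneoplastic library, so they passed the filter only through the tumors, and the fitted folds are imprecise. Il17a changed by 3.24 ± 1.14 on the log2 scale in Kit-B6 (edgeR adjusted p = 0.0215; 133 counts against 4, a ratio of 9.45 with an exact 95% interval of 3.61 to 35.2) and by 2.78 ± 0.90 in Kit-W/sh (adjusted p = 0.038). Csf2 changed by 4.57 ± 1.27 in Kit-W/sh (adjusted p = 0.0101), where 431 counts in tumors stood against 3 in preneoplastic colon, a ratio of 24.8 (exact 95% interval 8.44 to 121). In Kit-B6 the value for Csf2 was 2.04 ± 1.00 (adjusted p = 0.0985), and it passed without Kit-B6 tumor 4 (2.28, adjusted p = 0.0386) and without both doubted libraries (2.29, adjusted p = 0.00878).

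These calls rested on few preneoplastic libraries. In Kit-B6, Il17a missed the threshold without preneoplastic sample 1 (edgeR adjusted p = 0.0673) or sample 2 (0.0829). In Kit-W/sh it missed it without preneoplastic sample 1 (0.234) or 2 (0.115), or without tumor 4 (0.0625) or 5 (0.0591). Csf2 in Kit-W/sh missed it without preneoplastic sample 1 (0.0718) or 2 (0.105). Il22 had a log2 fold change of -1.73 ± 1.10 in Kit-W/sh (adjusted p = 0.19), and no fold is given in Kit-B6, where every library was at or under the floor. All 6 Kit-W/sh tumors lay below both Kit-W/sh preneoplastic samples, an ordering seen in 28.7% of all genes tested.

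Whether the genotype difference itself changed between stages was tested as an interaction in the same fit. For Csf2 the genotype difference was larger in tumors by 2.53 ± 1.62 on the log2 scale (edgeR adjusted p = 0.766). The values were -0.46 ± 1.46 for Il17a (adjusted p = 0.959) and -0.14 ± 2.02 for Il22 (adjusted p = 1), each computed with at least 1 group at or under the floor. None of the 869 genes was called (0%), 63 (7.25%) had an unadjusted p under 0.05, and DESeq2 called 1. With SEs of 1.46 to 2.02, even the value for Csf2 could not be told from 0.

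The panel measured 3 receptor chains of 11 on the list of receptors of these cytokines. Il17ra, the chain shared by IL-17 receptors, was at 187 ± 21.7 CPM in Kit-B6 and 190 ± 15.9 CPM in Kit-W/sh tumors, against 254 ± 37.1 and 225 ± 14.2 CPM in preneoplastic colon. It fell in Kit-B6 tumors relative to preneoplastic colon by 0.44 on the log2 scale (SE 0.16, edgeR adjusted p = 0.0361), a call that was lost without library scaling (-0.20, adjusted p = 0.335). Il17rb, which binds IL-25 and IL-17B, fell by 1.34 in Kit-B6 (SE 0.37, adjusted p = 0.00805) and by 1.53 in Kit-W/sh (SE 0.43, adjusted p = 0.00764). Csf2rb, the signalling chain of the GM-CSF, IL-3 and IL-5 receptors, rose by 1.13 ± 0.36 in Kit-B6 (adjusted p = 0.0257) and 1.48 ± 0.42 in Kit-W/sh (adjusted p = 0.0179). Between genotypes none of the 3 passed, and the largest difference was 0.37 ± 0.31 for Csf2rb in tumors (adjusted p = 0.598).

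Of 21 genes on a list of IL-17A signalling and target genes, 7 were measured, all of them chemokines or cytokines. In tumors, all 7 had log2 fold changes above 0 (Kit-W/sh over Kit-B6), as had 385 of all 799 genes tested. An unadjusted p under 0.05 was reached by 5 of the 7, against 8.26% of all genes on the higher side, and 0 of the 7 were called. Their median log2 fold change was 1.63, against -0.01 over all genes. Cxcl2, Cxcl1 and Cxcl3, chemokines that attract neutrophils, had log2 fold changes of 2.38 ± 0.58 (edgeR adjusted p = 0.154), 2.03 ± 0.61 (0.198) and 1.63 ± 0.59 (0.258). Il6, which also helps induce type 17 cells, had 2.34 ± 0.82 (0.258). Without both doubted libraries 3 of the 7 (and 15 of all genes) were called, Cxcl2 at 2.34, Cxcl1 at 2.01 and Cxcl3 at 1.59. IL-17A is one of several inducers of these genes.

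In preneoplastic colon 5 of these 7 genes passed the filter, and 4 had an unadjusted p under 0.05 with a higher Kit-W/sh level, against 3.99% of all genes. Cxcl5 had a log2 fold change of 2.63 ± 0.55 and Cxcl1 of 2.49 ± 0.56 (edgeR adjusted p = 0.253 for each). Cxcl2 had 3.33 ± 0.93 (0.253) and the monocyte chemokine Ccl2 1.14 ± 0.40 (0.443). Cxcl2 was at 0, 3.63 and 1.55 CPM in the Kit-B6 samples, under the floor, and passed the filter only through Kit-W/sh. The list's median was 2.49, against -0.01 over all genes, and 0 were called. From preneoplastic colon to tumors 6 of the 7 rose in Kit-B6 (median 4.00) and 7 of 7 in Kit-W/sh (median 4.66), against 22.2% and 20.9% of all genes called as higher. Cxcl2, Cxcl3 and Il6 were at or under 3 counts in every Kit-B6 preneoplastic library and were tested through the tumors. Cxcl5 rose by 6.45 ± 0.56 in Kit-B6 (adjusted p = 1.51e-05) and by 4.66 ± 0.60 in Kit-W/sh (adjusted p = 0.000544).

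**Figure D3:**
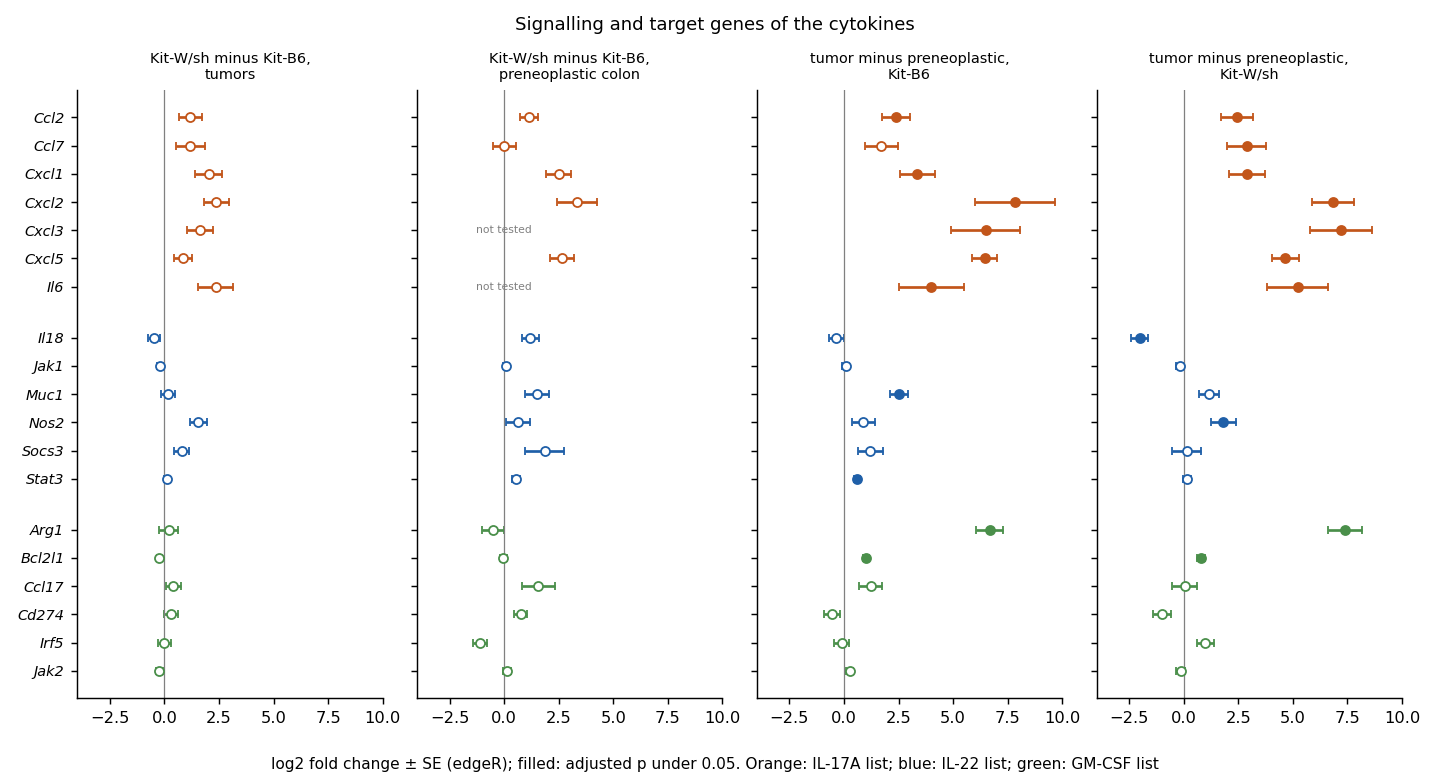
Log2 fold change with its SE (horizontal axis, edgeR) of the measured genes on the lists of IL-17A (orange), IL-22 (blue) and GM-CSF (green) signalling and target genes in 4 comparisons; filled points passed an adjusted p of 0.05. In tumors all 7 genes of the IL-17A list lie to the right of 0 between genotypes, and in preneoplastic colon all 6 of the IL-22 list do, without a call in either.

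The list of IL-22 signalling and target genes had 6 measured members of 18. In preneoplastic colon, where Il22 was highest in Kit-W/sh, all 6 were on the higher side there, as were 380 of all 777 genes tested. The list's median log2 fold change was 0.91, against -0.01 over all genes. An unadjusted p under 0.05 was reached by 3 of the 6, against 3.99% of all genes on the higher side, and 0 of the 6 were called. Muc1, an epithelial mucin, was at 137 and 139 CPM in Kit-W/sh against 78.8, 45.4 and 20.1 CPM in Kit-B6 (1.50 ± 0.55, edgeR adjusted p = 0.443). The cytokine Il18 was at 10717 and 8875 CPM against 6566, 3523 and 2646 CPM (1.18 ± 0.39, adjusted p = 0.398). Stat3, which transmits the IL-22 signal, was at 1443 and 1570 CPM against 1201, 940 and 938 CPM (0.53 ± 0.17, adjusted p = 0.368). These 3 genes had no overlap between the groups, as had 16.3% of all genes in this direction. Socs3, a feedback inhibitor of STAT3 signalling, was at 170 and 813 CPM against 42.2, 270 and 89.9 CPM and overlapped (1.86 ± 0.89, adjusted p = 0.5).

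In tumors 4 of the 6 IL-22 genes lay on the higher side and 2 on the lower, with a median of 0.13 and 0 called. Nos2, the inducible nitric oxide synthase, averaged 424 ± 244 CPM in tumors of Kit-W/sh mice, against 142 ± 45.9 CPM with normal Kit (1.56 ± 0.39, edgeR adjusted p = 0.154). It was called without both doubted libraries (1.57), a set of samples chosen after seeing the data. From preneoplastic colon to tumors in Kit-W/sh, 4 of the 6 lay on the higher side and 2 on the lower, with a median of 0.13. In each direction 1 was called: Il18 fell by 2.02 on the log2 scale (SE 0.39, edgeR adjusted p = 0.000603), and Nos2 rose by 1.80 ± 0.57 (adjusted p = 0.0331). Of all 869 genes tested, 20.9% were called higher and 163 genes lower, so these counts say little about the list. In Kit-B6, Muc1 rose by 2.52 ± 0.42 (adjusted p = 0.000648) and Stat3 by 0.58 ± 0.15 (adjusted p = 0.00633). These were 2 of the 6, beside 22.2% of all genes called higher.

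The list of GM-CSF signalling and target genes had 7 measured members of 14, and 6 passed the filter. Between genotypes in tumors 3 lay on the higher and 3 on the lower side, 0 had an unadjusted p under 0.05 and the median was 0.09. From preneoplastic colon to tumors, 2 of the 6 rose in both genotypes, beside 22.2% and 20.9% of all genes called as higher, so the count says little about the list. Arg1, the arginase of myeloid cells, rose by 6.67 ± 0.63 in Kit-B6 (edgeR adjusted p = 1.51e-05) and by 7.39 ± 0.78 in Kit-W/sh (adjusted p = 0.000136). Bcl2l1, a survival gene, rose by 1.00 ± 0.14 (adjusted p = 0.000114) and 0.79 ± 0.16 (adjusted p = 0.00246). Among other colony-stimulating factors and receptors, 2 of 4 rose in Kit-B6 and 4 of 4 in Kit-W/sh, among them Csf3r, the receptor of granulocyte colony-stimulating factor (3.56 ± 0.49 and 4.31 ± 0.56).

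Cytokines that induce type 17 cells lay on both sides of 0. Of 8 tested inducing cytokines, 4 were on the higher and 4 on the lower side between genotypes in tumors. An unadjusted p under 0.05 was reached by 3 of the higher and 1 of the lower. Of all genes, 13.6% had one in either direction and 8.26% on the higher side. Il1a and Il1b, the interleukin-1 genes, had log2 fold changes of 1.99 ± 0.53 and 1.91 ± 0.54 (edgeR adjusted p = 0.154 for each), and Tgfb3 had -0.59 ± 0.24 (0.31). Without both doubted libraries Il1a (1.96) and Il1b (1.88) were called, and 0 genes of the list were called as lower. That set of samples was chosen after seeing the data, so these calls are no independent support. Among the relatives of IL-17A and IL-22 on a list of 7, Il17b and Il21 were measured, and neither passed the filter, with at most 1 and 4 counts in a library.

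Likeness was measured over the 12 tumors as Spearman's rho with each of 798 other genes, with permutation p-values adjusted over those genes. For Csf2 the 4 most alike genes were Cxcl1 and Cxcl3 (rho = 0.972 each), Il1a (0.965) and Il6 (0.93), and 51 genes passed an adjusted p of 0.05. For Cxcl1, Pearson's r was 0.98 (permutation adjusted p = 0.00266, adjusted p of rho = 0.00399). It was 0.988 within Kit-B6 and 0.972 within Kit-W/sh tumors, and 0.962 without Kit-B6 tumor 4 and Kit-W/sh tumor 5, the tumors farthest from the median of Csf2. The T cell receptor chain Cd3e had rho = -0.07 (r = -0.09; permutation adjusted p = 0.913 for rho and 0.882 for r). For the neutrophil genes Cxcr2 and Csf3r, rho with Csf2 was 0.762 and 0.664 (permutation adjusted p = 0.0608 and 0.118). Their r was 0.905 and 0.818 (permutation adjusted p = 0.00565 and 0.0203), so that only r passed.

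For Il17a the 4 most alike genes were the chemokine Ccl4 and the RANK ligand gene Tnfsf11 (rho = 0.916 each, permutation adjusted p = 0.0439), Egr2 (0.895, adjusted p = 0.0612) and Tnfrsf1b (0.874, adjusted p = 0.0686). For Ccl4, r was 0.917 (permutation adjusted p = 0.00998), with 0.859 within Kit-B6 and 0.847 within Kit-W/sh tumors, and 0.866 without Kit-B6 tumor 4 and Kit-W/sh tumor 4. Il17a and Csf2 had rho = 0.699 and r = 0.8. In the family of Il17a the permutation adjusted p was 0.217 for rho and 0.0745 for r, and r was 0.644 without Kit-B6 tumor 4 and Kit-W/sh tumor 4. In the family of Csf2 they were 0.0971 and 0.018, so that r passed there, and r was 0.591 without Kit-B6 tumor 4 and Kit-W/sh tumor 5. Within genotypes r was 0.666 (Kit-B6) and 0.702 (Kit-W/sh). For Cxcr2 and Csf3r, rho with Il17a was 0.692 and 0.455 (permutation adjusted p = 0.22 and 0.456). Their r was 0.765 and 0.601 (permutation adjusted p = 0.0853 and 0.221), so neither passed. Il22 did not pass the filter in tumors and was not compared.

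**Figure D4:**
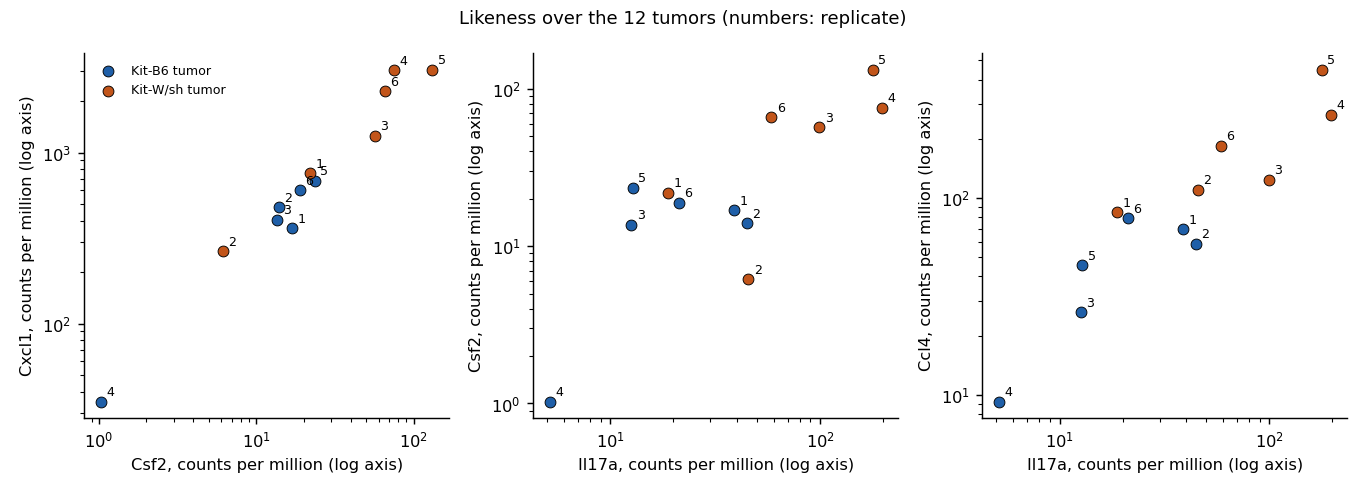
Level in CPM on logarithmic axes in the 12 tumors, with Csf2 against Cxcl1 (rho = 0.972), Il17a against Csf2 (rho = 0.699) and Il17a against Ccl4 (rho = 0.916). Points are tumors, colored by genotype and numbered by replicate; Kit-B6 tumor 4 lies at the lower end of Csf2 and Il17a, and Kit-W/sh tumors 4 and 5 at the upper end.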

How the data were processed

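RNA of colon tumors and preneoplastic colon was sequenced on a MiSeq as amplicons of a QIAseq mouse immuno-oncology panel, per the labels. The authors deposited whole-number counts per gene, 1 table per sample; whether these are reads or molecular tags is not given in the sources used here. The submitters' processing notes name mm9 and DESeq2; aligner and counter are not given in the sources used here. Of 993 entries, 5 control amplicons, all at 0 counts, were left out, and 22 genes had no count in any library.

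Counts were tested with edgeR 4.0.16 (R 4.3.3; TMM scaling, filterByExpr with minimum count 10 and minimum total 15, robust quasi-likelihood F test), with Benjamini-Hochberg adjustment over all genes tested and a threshold of 0.05. Genotypes were compared within a stage, and stages and the interaction in a fit of all 17 libraries. DESeq2 1.42.0, other scalings, no filter, a replicate block and leave-one-out fits were alternatives. Permutation tests used log2(CPM + 1): all 924 splits for tumors, 10 for preneoplastic colon, and 100000 resamples for correlations (smallest p 1e-05). Ratios of summed counts carry exact binomial intervals. The fits were tested on simulated data. Groups and replicate numbers came from the titles; replicate numbers did not pair the samples. The text names the 3 members, every measured receptor chain, up to 4 genes of smallest p per list and comparison, the 4 genes most like each member, and Kit and Cpa3; Epcam, Cd3e and other genes outside that set were added once their values were known, and a gene of that set is not reported here. The members and lists were chosen with earlier results of these data known.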

Additional observations from a re-analysis of the deposited data

Results flagged for a closer look

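Il22 in Kit-B6 tumor 2, at 4.19 CPM, stood apart from the other Kit-B6 tumors, which were at 0 to 0.713 CPM. The level rests on 3 counts, which is the floor. Such a check marks about 1 in 20 groups by chance, and 12 groups were checked here.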

How the results depend on the processing

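Il17a in tumors passed between genotypes only with DESeq2 (2.11, adjusted p = 0.0208). The number of genes called in tumors was 27 with DESeq2 and 15 without the library labelled Kit-W/sh tumor 2 and Kit-B6 tumor 4, a setting chosen after seeing the data. In preneoplastic colon, with 1 gene called, it was 0 with unscaled totals, with the replicate block and in the fit of all 17 libraries, 21 with DESeq2, and 0 to 16 leaving out 1 library. The interaction gave 1 gene with DESeq2 and 0 to 2 leaving out 1 library.

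The replicate numbers do not pair the samples (correlations of same-numbered deviations from -0.195 to 0.39, with 3 of 6 tumor numbers closest to their own number). With a replicate block, Il17a gave 3.23 in Kit-B6 (adjusted p = 0.0677) and 2.59 in Kit-W/sh (adjusted p = 0.144) between stages, and Csf2 gave 3.75 in Kit-W/sh (adjusted p = 0.0599). Csf2 between stages in Kit-B6 passed with Kit-B6 tumors 4 and 5, whose deposited names are nearly alike, summed (2.14, adjusted p = 0.0497), and without both doubted libraries (2.29). Without those libraries Csf2 also passed between genotypes in tumors (1.98), and between stages the genes called higher on the IL-17A, IL-22, GM-CSF and other colony-stimulating factor lists were 7, 3, 3 and 3 in Kit-B6 (6, 2, 2 and 2 with them) and 7, 2, 3 and 4 in Kit-W/sh (7, 1, 2 and 4). Over all genes tested, 223 of 863 were called higher in Kit-B6 (193 of 869 with them) and 205 of 863 in Kit-W/sh (182 of 869).

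Leaving out 1 library, the log2 change between stages ran from 2.73 to 4.44 (Il17a) and 1.67 to 2.48 (Csf2) in Kit-B6, and from 2.37 to 3.45 (Il17a) and 4.00 to 5.32 (Csf2) in Kit-W/sh. Genes called between stages in Kit-W/sh were 132 to 367. The interaction ran from -1.66 to 0.20 for Il17a and -1.51 to 1.26 for Il22 and changed sign; for these reversals and the other changed calls, the cause was not tested. Between genotypes, the log2 fold changes of all 3 members in tumors, and of Il17a and Il22 in preneoplastic colon, stayed above 0 under every alternative that gave a value. Unscaled totals moved the median of all genes between stages to 0.24 (Kit-B6) and 0.34 (Kit-W/sh). Low counts limit Il22 in Kit-B6 samples and Csf2 in preneoplastic colon.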
